A study of Mus musculus with 4 samples.

Results

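The report covers 10 genes of suppressive, helper and related cytokines in regulatory T cells (Treg). These are Il10, Ebi3, Ifng, Il4, Il21, Areg, Csf1, Tnf, Lta and Ltb. They were taken by symbol from the RNA-seq tables of a comparison of resting and activated mouse Treg. All 10 were present among the 38924 gene identifiers of the count table, and all 10 were among the 14235 genes that passed the filter on low counts and were tested. Each group was a pair of spleen samples from biologically independent mice, one group labelled resting Treg and the other activated Treg. The sources used here do not give strain, sex, age or any allele or agent of the mice, and no treatment is named for either group. The labels describe a sort of CD4+Foxp3+ cells and print the same surface gate, which includes CD44lo, for both groups. RNA was amplified with a SMART-seq kit for very small inputs before sequencing. The letters A and B below only name the count columns of a group and pair nothing across groups.

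Il10 and Ebi3 encode suppressive cytokines or their subunits, through which Treg are known to act on dendritic cells and other T cells. Ifng, Il4 and Il21 are the signature cytokines of helper T cell lineages, and activated Treg can transcribe the programme of the helper lineage they restrain. Areg and Csf1 act on tissue and on myeloid cells, while Tnf, Lta and Ltb are a linked set of TNF family ligands that shape inflammation and lymphoid tissue. Many cytokine mRNAs carry AUUUA motifs in the 3′ untranslated region, which recruit proteins such as tristetraprolin (Zfp36) that shorten the life of the message.

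To show where that type of control could act, the 3′ untranslated region of each gene's longest coding transcript (GENCODE M21, mm10) was searched on the transcript strand for ATTTA. The motif was present in 9 of 10 genes, all but Ltb, against 69.0% of 11958 tested genes with such a region. At least 3 copies were present in 7 of 10 genes, against 37.5% of the tested genes. The longer form TTATTTATT was present in 4 of 10 (Il21, Areg, Tnf and Lta), against 8.04% of the tested genes. Density differed among the members, from 19.2 motifs per kb in the short region of Il4 and 15.8 per kb in Areg to 1.89 per kb in Csf1 and none in Ltb. The 30 bases richest in the motif, 5′ to 3′ as DNA with each ATTTA in capitals, are printed for 6 of the genes, since they contrast clustered with single motifs.
Il10: ctctctccgaaatATTTAttacctctgata
Ifng: cctATTTAttaatATTTAaaactATTTAta
Il4: atttttaatATTTAtatATTTAtaattcat
Areg: taATTTATTTAatATTTAagtgttATTTAt
Tnf: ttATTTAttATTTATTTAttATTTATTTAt
Lta: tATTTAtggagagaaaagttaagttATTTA
Tnf held 8 copies in 764 bases, of which the window shows the overlapping run, while the window of Il10 holds 1 of its 6 copies. These are matches of letters, described without a measurement of mRNA decay.

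The deposited counts summed to between 20282062 and 31851982 per library, and between 18928 and 23398 genes were detected. Genes with a count of 2 outnumbered genes with a count of 1 in every library, and between 54.4% and 60.1% of counts from 1 to 10 were even. Low counts therefore need not be single independent fragments, and why even counts prevailed was not tested. Foxp3, the lineage factor of Treg, stood between 35.02 and 38.8 CPM (counts scaled to a common library total) in all libraries. Cd44, which encodes a receptor for hyaluronan, stood at 145.1 and 212.8 CPM in the resting libraries and at 328.7 and 334.7 CPM in the activated ones (DESeq2 adjusted p = 0.0417, not called by edgeR). The activated libraries therefore held more Cd44 mRNA than the resting ones, although the printed gate is the same.

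Across the 10 genes, 8 had both activated libraries above both resting libraries, all but Lta and Ltb, against 19.8% of the genes tested. edgeR's quasi-likelihood test with Benjamini-Hochberg adjustment over all genes called 0 of 10 genes (0.0% of all genes called in either direction), and its smallest adjusted p for any gene was 0.2665. The log2 fold change was above 1 in 7 of 10 genes, against 9.66% of genes tested. At an unadjusted edgeR p under 0.05, 7 of 10 were higher in activated Treg, against 6.3% of genes tested, and 0 were lower, against 2.61%. Without activated B, 3 of 10 were at that unadjusted p. DESeq2, run as an alternative on the same genes, called 5 of 10 higher (Il10, Ebi3, Ifng, Il4 and Csf1) at an adjusted p under 0.05, against 2.28% of genes tested, and 0 lower, against 0.829%. Without adjustment DESeq2 put 7 of 10 under 0.05 as higher, against 6.83% of genes, and 0 as lower, against 2.91%. limma-voom, the other alternative, called 0 after adjustment (0.0% of all genes in either direction) and put 5 members under an unadjusted p of 0.05, all higher (6.35% of genes were higher and 2.59% lower). The DESeq2 calls depended on single libraries: without resting A, or without activated B, 0 of 10 were called, and without resting B or activated A, 3 of 10 were called. Il21 and Areg passed the filter only through the activated libraries and so had to lie higher there. Il10 had 1 resting library over the cutoff and did not pass without the activated libraries, which favoured higher values there. Among the 7 other genes, 4 had an unadjusted edgeR p under 0.05 and 4 were called by DESeq2. These tests have only 2 animals per group for the spread of a gene, and they supplement it with the spread seen across the other genes. In bulk samples a smaller number of expressing cells and less RNA per cell cannot be told apart.

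**Figure D1:**
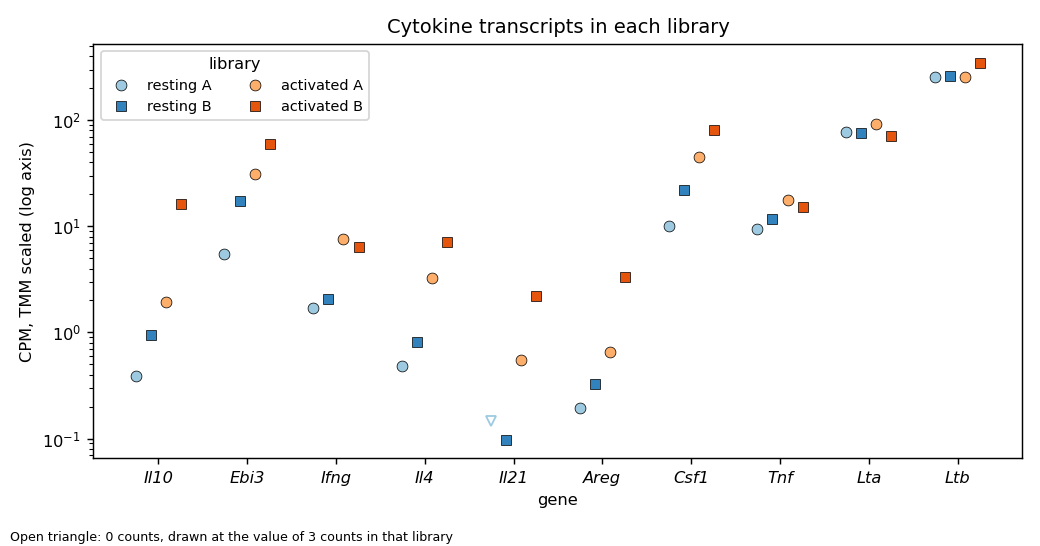
Level of each cytokine transcript in the 4 libraries, in TMM-scaled CPM on a log axis; circles are A and squares are B libraries, blue is resting and orange is activated, and the open triangle marks a count of 0 drawn at the value of 3 counts. For 8 of the 10 genes both orange points lie above both blue points, while Lta and Ltb overlap.

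Markers of other spleen cells moved between the libraries too. The summed level of 7 plasmacytoid dendritic cell markers was 100.3 and 98.2 CPM in the resting and 708.4 and 229.3 CPM in the activated libraries, with 16, 8, 8548 and 1190 counts of Siglech, a defining lectin, and DESeq2 called 6 of the 7 higher in activated Treg. Conventional dendritic cell markers, of which 4 of 7 were called higher by DESeq2, summed to 11.7 and 7.92 against 179.4 and 50.4 CPM. The 10 macrophage and monocyte markers, 0 of them called, summed to 518 and 13.9 against 529.6 and 54.0 CPM. Il10, Ebi3, Il4, Il21, Areg, Csf1 and Ltb were higher in activated B than in activated A, and Ifng, Tnf and Lta were lower. Both dendritic sums and the macrophage sum were lower in activated B, as were the CD8 and gamma-delta T cell, neutrophil and erythroid sums. The B cell, plasma cell and natural killer cell sums were higher in activated B. The basophil and mast cell sum was nearly the same in both, and its 2 tested genes had a median log2 ratio of activated B over A of -1.48. The 6 natural killer cell markers, relevant to Ifng, summed to 4.27 and 6.33 against 12.8 and 16.8 CPM. Of the 2 tested, 1 was called higher. The other, Eomes, lay lower, with 44 and 75 counts in resting and 27 and 12 in activated Treg. The receptor gene Ncr1 gave 0, 0, 7 and 4 counts. The 7 basophil and mast cell markers, relevant to Il4, 2 of them tested and 0 called, summed to 7.62 and 3.78 against 3.66 and 3.75 CPM, and the defining genes Mcpt8 and Ms4a2 gave 4 counts in activated B and 0 in all libraries, respectively. The 8 B cell markers, relevant to Il10 and Ltb, 1 called higher and 1 lower, summed to 46.9 and 66.5 against 87.9 and 117.9 CPM. The 3 CD8 and gamma-delta T cell markers, relevant to Ifng and 0 of them called, summed to 35.6 and 34.95 against 84.8 and 40.0 CPM. The 4 plasma cell markers summed to 10.05 and 33.5 against 40.7 and 44.6 CPM, mostly from Jchain, which joins secreted antibody units and whose groups overlapped. DESeq2 called 1 of the 3 tested higher, Mzb1, a chaperone of antibody assembly, with 10 and 34 counts in resting and 186 and 116 in activated Treg. The part of these cells in the cytokine differences was not tested.

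**Figure D2:**
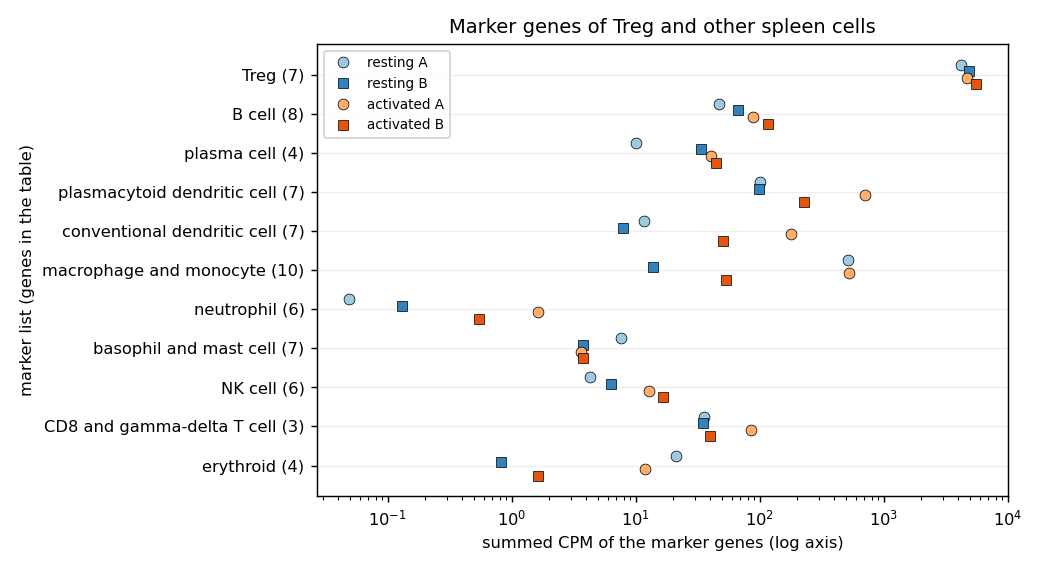
Summed CPM of marker genes of Treg and 10 other spleen cell types in each library on a log axis, with the number of genes in brackets. The sums for plasmacytoid and conventional dendritic cells are highest in activated A, those for macrophages are high in both A libraries, and Treg markers lie between 4190 and 5616 CPM in all 4.

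Il10 (ENSMUSG00000016529, chr1:131019845-131024974 on the plus strand) encodes interleukin-10, which dampens antigen presentation and inflammatory cytokine production. Its raw counts were 8 and 29 in resting A and B and 59 and 330 in activated A and B. On the CPM scale these were 0.388 and 0.946 against 1.93 and 16.3, so the groups did not overlap, yet the activated libraries differed 8.44-fold from each other. The means were 0.667 ± 0.394 CPM (SD, n = 2) and 9.10 ± 10.1 CPM (SD, n = 2). The log2 fold change was 3.61 ± 1.11 (SE), with a 95% interval from 0.76 to 6.46 and an edgeR adjusted p of 0.433, against a DESeq2 adjusted p of 0.00954. The size rested on activated B: without it the edgeR log2 fold change was 1.41 with an adjusted p of 0.997, and the DESeq2 adjusted p was 1.0. Without activated A the log2 fold change was 4.43. Of its flanking protein-coding genes, Il19, another cytokine of the interleukin-10 family, had 0 counts in all libraries and Mapkapk2, a stress-activated kinase, differed by a log2 of -0.08.

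Ebi3 (ENSMUSG00000003206, chr17:55952640-55957022, plus strand) encodes the subunit that pairs with Il12a in interleukin-35 and with Il27 in interleukin-27. It stood at 5.54 and 17.4 CPM in the resting libraries and at 30.9 and 59.9 CPM in the activated libraries, with 114 counts in the lowest library. The groups did not overlap, and both B libraries lay above their A libraries. The means were 11.5 ± 8.42 and 45.4 ± 20.5 CPM (SD, n = 2 each), a log2 fold change of 1.97 ± 0.63 (edgeR adjusted p = 0.449, DESeq2 adjusted p = 0.0286). That log2 fold change was 3.0 without resting B and 1.37 without resting A, and the DESeq2 adjusted p was 0.222 without resting A and 0.849 without activated B. The partner chains, looked up after the Ebi3 values were seen, were near 0: Il12a had 2 counts in activated A and 0 elsewhere, and Il27 had 6 and 2 counts in the activated libraries and 0 in the resting ones. Il27ra, the receptor chain for interleukin-27, stood at 433.7 and 448.5 CPM in resting and 456.5 and 569 CPM in activated Treg. The antisense gene Gm16712 overlaps Ebi3, and since the sources used here do not give the strand setting of the counting, reads of the pair cannot be told apart.

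Ifng (ENSMUSG00000055170, chr10:118441046-118445892, plus strand) encodes interferon-gamma, the macrophage-activating cytokine of type 1 helper cells. Its levels were 1.70 and 2.09 CPM in resting and 7.58 and 6.36 CPM in activated Treg, from 35 to 232 counts. Ifng had the tightest replicates among the genes with a log2 fold change above 1, and its groups lay well apart. The means of 1.89 ± 0.274 and 6.97 ± 0.864 CPM (SD, n = 2 each) gave a log2 fold change of 1.84 ± 0.37 with a 95% interval from 0.89 to 2.78. The edgeR adjusted p was 0.2896 and the DESeq2 adjusted p was 0.00767. Leaving out any 1 library kept the edgeR log2 fold change between 1.70 and 1.97, but the DESeq2 adjusted p was then between 0.304 and 0.618. Gm49751, an unclassified transcript on the same strand, lies within the gene.

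Il4 (ENSMUSG00000000869, chr11:53602982-53618669, minus strand) encodes the cytokine that drives type 2 helper responses. Its raw counts were 10 and 25 in the resting libraries and 100 and 145 in the activated ones. In CPM these were 0.486 and 0.815 against 3.27 and 7.15, so the groups lay apart. This was a log2 fold change of 2.84 ± 0.59 with a 95% interval from 1.33 to 4.36 (edgeR adjusted p = 0.297, DESeq2 adjusted p = 0.00406). It was 2.19 without activated B, and leaving out any 1 library ended the DESeq2 call, with adjusted p from 0.0593 to 1.0. Il13, its neighbour in the type 2 cytokine locus, had 0 counts in all 4 libraries, which allows up to 0.148 CPM in the shallowest. Kif3a, the neighbour on the other side and a kinesin motor, had a log2 fold change of 0.49 with an adjusted p of 0.811 by edgeR.

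Il21 (ENSMUSG00000027718, chr3:37222759-37232636, minus strand) encodes the follicular helper cytokine that acts on germinal centre B cells. Its raw counts were 0 and 3 in the resting libraries and 17 and 45 in the activated ones. The groups did not overlap, but only activated B exceeded 20 counts. Summed counts of 62 against 3 gave a depth-scaled ratio of 20.8, with an exact Clopper-Pearson 95% interval from 6.80 to 103.7. That interval leaves out the spread between animals. It also takes counts as independent, which low counts here need not be, so it can be too narrow. The edgeR log2 fold change was 3.48 ± 1.03, with a 95% interval from 0.85 to 6.11. With edgeR the adjusted p was 0.412, and with DESeq2 it was 0.111. The antisense gene Gm12534 overlaps the gene, and Il2, the growth factor on its lower-coordinate side, had 16 and 18 counts in the resting pair and 51 and 28 in the activated pair. Il2 therefore did not overlap either, with a log2 fold change of 1.09 ± 0.52 and an edgeR adjusted p of 0.6999.

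Areg (ENSMUSG00000029378, chr5:91139599-91148432, plus strand) encodes amphiregulin, an EGF receptor ligand through which Treg are known to aid tissue repair. Its raw counts were 4 and 10 in the resting libraries and 20 and 67 in the activated libraries. On the CPM scale 0.194 and 0.326 stood against 0.654 and 3.30, and the activated libraries differed 5.05-fold. The log2 fold change was 2.58 ± 0.89 (edgeR adjusted p = 0.4905, DESeq2 adjusted p = 0.246), and 1.11 without activated B. The neighbouring EGF family genes did not share this pattern of values, with 4 counts of Ereg in activated B only and a log2 fold change of -0.33 for Btc. Egfr, the receptor, had 6 counts in each resting library and 68 and 31 in activated A and B. Its log2 fold change was 2.62 ± 0.57, with an adjusted p of 0.0721 by DESeq2. Adam17, the protease that releases Areg from the cell surface, stood at 133.3 and 127.4 CPM in resting and 150.7 and 117.3 CPM in activated Treg (log2 fold change 0.04 ± 0.20).

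Csf1 (ENSMUSG00000014599, chr3:107741048-107760469, minus strand) encodes macrophage colony-stimulating factor. It stood at 10 and 21.9 CPM in the resting libraries and at 44.6 and 80.5 CPM in the activated ones, from 206 to 1634 counts. No activated library overlapped a resting one, and the means were 15.9 ± 8.40 and 62.6 ± 25.4 CPM (SD, n = 2 each). The log2 fold change was 1.97 ± 0.49, with a 95% interval from 0.72 to 3.21, an edgeR adjusted p of 0.357 and a DESeq2 adjusted p of 0.00296. It ran from 1.47 without activated B to 2.62 without resting B, and the DESeq2 adjusted p was 0.304 without activated B and 0.0762 without resting A. Its receptor gene Csf1r, looked up after its values were seen and known as a macrophage gene, was at 74.1 and 2.48 CPM in the resting and 72.7 and 5.23 CPM in the activated libraries. Csf1r was thus high in both A libraries, whereas Csf1 was higher in both B libraries.

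**Figure D3:**
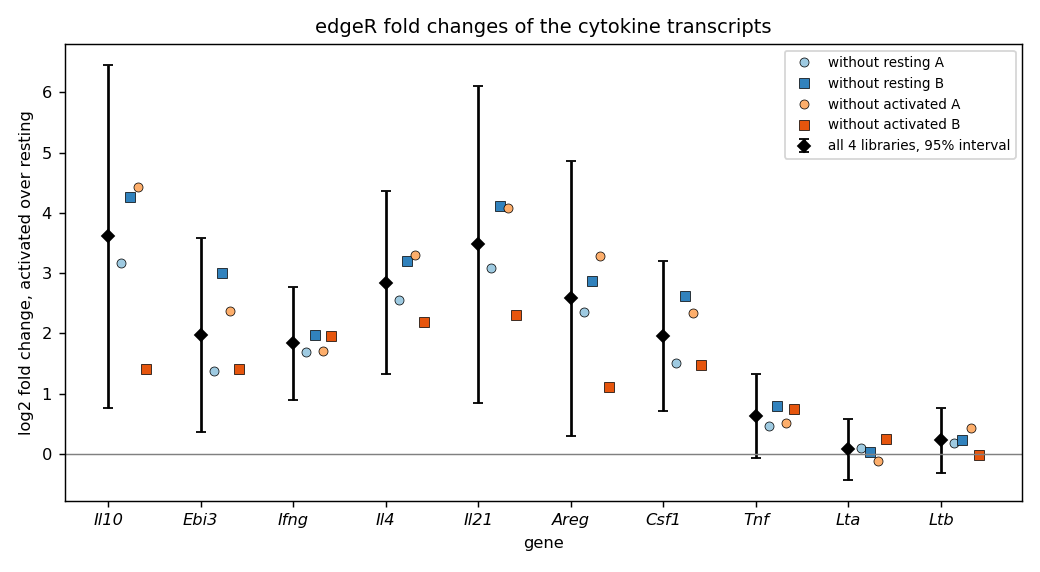
Log2 fold change of activated over resting Treg by edgeR for each cytokine gene; diamonds with bars are all 4 libraries with unadjusted 95% intervals, and the smaller symbols leave out 1 library each. Without activated B the value of Il10 falls from 3.61 to 1.41 and that of Areg from 2.58 to 1.11, while Ifng stays between 1.70 and 1.97.

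Tnf, Lta and Ltb lie in 1 short stretch of chromosome 17, with 3061 bases between Ltb and Tnf and 1158 between Tnf and Lta. Their promoters are printed with those of Csf1 and Il4, which are on other chromosomes, because the genes differ in both the size of their log2 fold change and the motifs in this window. Each run is the RefSeq window (GRCm38.p6) from 250 bases before to 50 after the transcription start, 5′ to 3′ on the gene's strand, searched on both strands. Capitals mark GGAAAA (the core bound by NFAT, held by 20.7% of 12816 promoters of tested genes), the NF-kB consensus (1.68%) and TATAAA (7.25%). A gene can have more than one start, and Il4 is shown at chr11:53618616-53618915, Csf1 at chr3:107760420-107760719, Tnf at chr17:35201958-35202257 and Lta at chr17:35205302-35205601, all on the minus strand, and Ltb at chr17:35194257-35194556 on the plus strand.
Il4: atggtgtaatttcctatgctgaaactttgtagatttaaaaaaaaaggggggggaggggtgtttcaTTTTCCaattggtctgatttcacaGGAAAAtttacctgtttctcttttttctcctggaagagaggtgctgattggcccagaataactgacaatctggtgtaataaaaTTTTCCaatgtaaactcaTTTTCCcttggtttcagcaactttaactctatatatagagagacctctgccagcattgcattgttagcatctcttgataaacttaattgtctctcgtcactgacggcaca
Csf1: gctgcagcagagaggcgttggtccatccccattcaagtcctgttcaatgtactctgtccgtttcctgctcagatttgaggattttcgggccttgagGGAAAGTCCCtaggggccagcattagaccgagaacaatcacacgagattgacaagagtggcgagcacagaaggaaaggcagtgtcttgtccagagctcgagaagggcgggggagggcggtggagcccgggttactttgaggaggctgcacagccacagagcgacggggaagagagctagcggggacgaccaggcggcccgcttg
Tnf: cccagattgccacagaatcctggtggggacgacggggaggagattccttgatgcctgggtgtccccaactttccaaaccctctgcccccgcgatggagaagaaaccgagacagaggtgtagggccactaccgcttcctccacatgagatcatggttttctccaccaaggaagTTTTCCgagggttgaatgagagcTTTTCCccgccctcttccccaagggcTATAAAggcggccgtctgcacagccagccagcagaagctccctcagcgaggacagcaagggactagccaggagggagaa
Lta: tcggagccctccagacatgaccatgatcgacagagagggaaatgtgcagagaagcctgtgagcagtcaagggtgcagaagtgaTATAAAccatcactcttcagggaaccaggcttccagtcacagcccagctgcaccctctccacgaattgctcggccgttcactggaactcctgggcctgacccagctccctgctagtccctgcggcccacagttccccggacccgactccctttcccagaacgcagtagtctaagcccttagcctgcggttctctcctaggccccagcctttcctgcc
Ltb: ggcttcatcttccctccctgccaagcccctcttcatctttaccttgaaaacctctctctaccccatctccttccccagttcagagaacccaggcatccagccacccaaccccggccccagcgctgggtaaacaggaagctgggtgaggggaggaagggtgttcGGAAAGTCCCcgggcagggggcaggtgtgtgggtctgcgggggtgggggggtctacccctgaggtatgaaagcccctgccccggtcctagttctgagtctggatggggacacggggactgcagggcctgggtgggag
This Il4 window held 4 copies of the NFAT core, while the window of the other Il4 start, chr11:53617289-53617588, held 0. Tnf held 2 copies, at -78 and -55 from the start, and Il21, not printed, also held 2. The NF-kB letters occurred in Csf1 at -154 and in Ltb at -87, a pair of genes with log2 fold changes of 1.97 and 0.23. TATAAA occurred in 4 of 9 members, against 7.25% of promoters of tested genes. It lay at -29 in Tnf and -167 in Lta, and at -30 in Ifng and -31 in Areg, which are not printed. The STAT letters TTCNNNGAA, not put in capitals, also occurred in 4 of 9 (6.95%). These were Ifng, Lta, Ltb and Il4, in Il4 only at the other start. The Foxo letters GTAAACA occurred in 1 of the 9 members with a window, Ltb, at -124 (2.52% of promoters of tested genes), and AP-1 letters TGANTCA in 0 of 9 (4.92%). Windows matched 9 of 10 members, and Il10 had none in the table.

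Tnf (ENSMUSG00000024401, chr17:35199381-35202007, minus strand) encodes tumour necrosis factor. Its levels were 9.37 and 11.8 CPM in the resting and 17.8 and 15.1 CPM in the activated libraries. The groups did not overlap and the replicates were close, with means of 10.6 ± 1.70 and 16.4 ± 1.90 CPM (SD, n = 2 each). Their log2 fold change was 0.63 ± 0.27, but its 95% interval ran from -0.07 to 1.33 and the adjusted p was 0.626 by edgeR and 0.586 by DESeq2.

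Lta (ENSMUSG00000024402, chr17:35203165-35205351, minus strand) encodes lymphotoxin-alpha, which is secreted or held at the membrane with lymphotoxin-beta. It stood at 77.9 and 75.2 CPM in resting and at 91.4 and 70.2 CPM in activated Treg. The groups overlapped, since activated B was the lowest of the 4 libraries and activated A the highest. The log2 fold change was 0.08 ± 0.20, with an interval from -0.43 to 0.59 (edgeR adjusted p = 0.994). Without activated A it was -0.12.

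Ltb (ENSMUSG00000024399, chr17:35194439-35196320, plus strand) encodes lymphotoxin-beta, the membrane anchor of the lymphotoxin complex that organises lymphoid tissue. It was at 252.7 and 262.6 CPM in resting and at 255.5 and 346.8 CPM in activated Treg. Activated A lay between the resting libraries and activated B above all others. The log2 fold change was 0.23 ± 0.21, with an interval from -0.31 to 0.76 (edgeR adjusted p = 0.936), and -0.02 without activated B. Nfkbil1 and Lst1, which flank the 3 genes, had log2 fold changes of 0.39 and 0.43 with overlapping groups.

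Per kilobase of the longest coding transcript, the order of levels in resting Treg was Ltb, Lta, Ebi3, Tnf, Csf1, Ifng, Il4, Il10, Areg and Il21. Ltb stood at 222.1 ± 6.03 CPM per kb, Lta at 55.4 ± 1.40 and Ebi3 at 9.96 ± 7.30 (SD, n = 2 each). Il21, at the other end, stood at 0.0159 ± 0.0225 CPM per kb. In this order only Ebi3 and Tnf overlapped among neighbours. In activated Treg Ltb (259.6 ± 55.7), Lta (58.4 ± 10.8) and Ebi3 (39.4 ± 17.8) kept the first places and Areg (1.63 ± 1.54) and Il21 (0.451 ± 0.383) the last. Csf1 now stood above Tnf, at 14.98 ± 6.09 against 10.02 ± 1.16 CPM per kb. Il4 (8.61 ± 4.53) and Il10 (6.94 ± 7.74) stood above Ifng (5.77 ± 0.716) by their means. Of the neighbouring pairs in the activated order, only Ltb and Lta, Ebi3 and Csf1, and Ifng and Areg were separated in both libraries. The lymphotoxin mRNAs were thus the most abundant of these 10 in both groups.

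The authors' regularized log2 table, whose columns carry replicate numbers 1 and 2, placed the same 8 genes higher in both activated columns. Il10 was at 4.22 and 4.91 in resting and 5.6 and 7.999 in activated Treg, and Csf1 at 8.13 and 9.14 against 10.05 and 10.83. Lta was at 10.92 and 10.88 against 11.12 and 10.78. Differences on this scale are shrunken for genes with few reads, so that Il21 spanned only 2.86 and 3.03 against 3.59 and 4.49.

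Within groups the cytokine genes also differed between animals. In 6 genes (Il10, Ebi3, Il4, Il21, Areg and Csf1) resting A was lowest, followed by resting B, activated A and then activated B, which 7.82% of genes tested did. Of these, Il10, Il21 and Areg did not pass the filter without the activated libraries, so the filter favoured activated above resting values in them. Ebi3, Il4 and Csf1 passed through the resting libraries too. Activated B was above activated A in 7 of 10 genes, against 48.3% of genes, and resting B above resting A in 9 of 10, against 49.7%. The log2 ratio of activated B over activated A was 3.03 for Il10, 2.21 for Areg, 1.86 for Il21 and 1.11 for Il4, each above the 95th percentile of all genes at 1.10. For Ebi3 and Csf1 it was 0.95 and 0.85, above the 90th percentile of 0.73. Ifng, Tnf and Lta went the other way in the activated pair, with log2 ratios of -0.25, -0.24 and -0.38. In the resting pair the log2 ratio of B over A was 1.64 for Ebi3, above the 95th percentile of 1.34. It was 1.17 for Il21 (0 and 3 counts), 1.13 for Il10 and 1.12 for Csf1, above the 90th percentile of 0.76. The other members lay below that percentile.

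**Figure D4:**
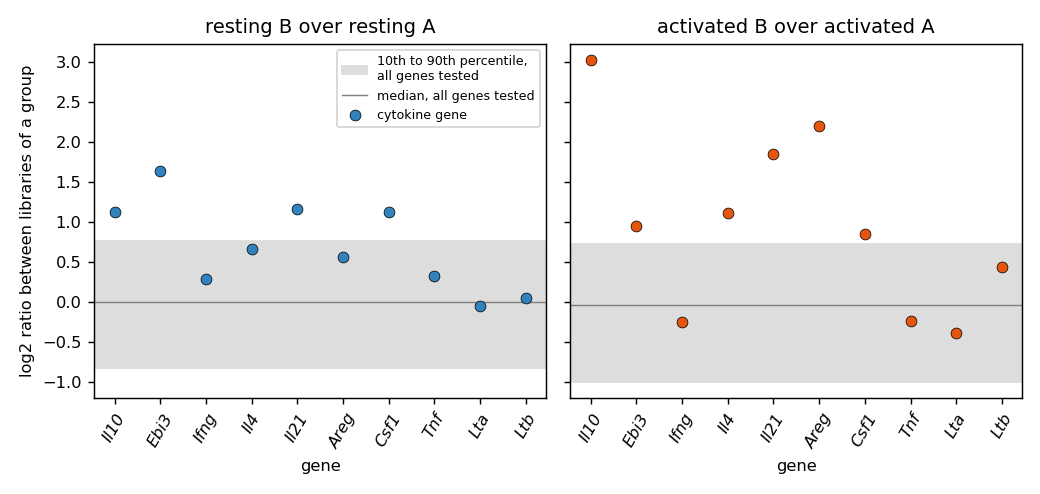
Log2 ratio of library B over library A within resting (left) and activated (right) Treg for each cytokine gene; the grey band spans the 10th to 90th percentile of all 14235 genes tested. Il10, Ebi3, Il4, Il21, Areg and Csf1 lie above the band in activated Treg, and Ifng, Tnf and Lta lie below 0 there. In resting Treg Il10, Ebi3, Il21 and Csf1 lie above the band.

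Among receptors for these cytokines (18 genes, all tested), 5 lay higher and 3 lower with an unadjusted edgeR p below 0.05 (6.3% and 2.61% of all genes), and DESeq2 called 1 higher (2.28% of all genes). That gene was Il10ra, the ligand-binding chain of the interleukin-10 receptor. It stood at 58.1 and 74.0 CPM in resting and at 137 and 135.7 CPM in activated Treg. The difference was 1.04 ± 0.19 on the log2 scale (DESeq2 adjusted p = 0.00148, edgeR not called). Il4ra, the interleukin-4 receptor chain, stood the other way, at 427.4 and 382 against 260.7 and 259.8 CPM, a log2 fold change of -0.64 ± 0.17 (DESeq2 adjusted p = 0.054). Il2rg, the common gamma chain that the receptors for Il4 and Il21 share, stood between 887.4 and 1037 CPM in all 4 libraries.

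Of the other TNF family ligands, 10 of 15 were tested, 3 of them higher and 0 lower with an unadjusted edgeR p below 0.05 (6.3% and 2.61% of all genes), with a median log2 fold change of 0.76 against -0.01 for all genes. DESeq2 called 1, Tnfsf14 (LIGHT, which shares a receptor with the lymphotoxins), at 3.88 and 5.74 against 15.9 and 23.8 CPM, with a log2 fold change of 2.02 ± 0.37 and a DESeq2 adjusted p of 2.25e-04. Tnfsf9, the ligand of 4-1BB, stood at 3.11 and 4.37 against 8.40 and 11.9 CPM. Unlike Lta and Ltb, both had groups that did not overlap.

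Of 42 other cytokine genes, 41 were in the table and 17 were tested, 3 of them higher and 1 lower with an unadjusted edgeR p below 0.05 (6.3% and 2.61% of all genes). DESeq2 called Spp1, the matrix protein osteopontin, with 4, 4, 48 and 36 counts and a log2 fold change of 2.88 ± 0.57 (DESeq2 adjusted p = 0.0492). Osm, the gene of oncostatin M, was at 38.8 and 37.1 CPM in resting and 23.7 and 27.3 CPM in activated Treg. Csf2 had 0 counts in both resting libraries and 12 and 9 in the activated ones. By contrast Il17a, Il9, Il13, Il19, Il20 and Il23a had 0 counts in all libraries, a set chosen for its zeros. The median log2 fold change of the list was 0.15, and 0.79 without resting A.

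Of 21 transcription factors and signal transducers known to act on these loci, 20 were tested, 6 higher and 1 lower with an unadjusted edgeR p below 0.05 (6.3% and 2.61% of all genes), and DESeq2 called 2 higher (2.28%). Maf, an activator of Il10, Il4 and Il21, stood at 35.2 and 91.6 CPM in resting and at 191.5 and 244.4 CPM in activated Treg. Its log2 fold change was 1.78 ± 0.48 (DESeq2 adjusted p = 0.00539), and it followed the same order of libraries as those cytokine genes. Tbx21, the T-bet gene that drives Ifng, stood at 2.33 and 4.37 against 9.25 and 12.9 CPM, a log2 fold change of 1.70 ± 0.44 (DESeq2 adjusted p = 0.032). The gene on the lower side was Eomes, a relative of Tbx21 that also acts on Ifng, with 44 and 75 counts in resting and 27 and 12 in activated Treg (log2 fold change -1.53 ± 0.50, not called by DESeq2). Prdm1 (Blimp-1), at 15 and 21.1 against 30.9 and 53.7 CPM, did not overlap and was not called. Stat6, which relays interleukin-4 signals, stood between 425 and 506 CPM in all libraries.

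A mixed list of 11 genes that regulate mRNA, called mRNA decay genes here, is not limited to proteins that act on AUUUA motifs or shorten mRNA life. Of these, 0 were higher or lower with an unadjusted edgeR p below 0.05 (6.3% and 2.61% of all genes). The median log2 fold change was -0.09. Zfp36 stood at 253.1 and 253.3 CPM in resting and 184.6 and 237.6 CPM in activated Treg (log2 fold change -0.26 ± 0.19). Zfp36l1, a relative with the same type of RNA-binding domain, had a log2 fold change of 0.48 ± 0.22. Among 5 genes that shed EGF ligands, 1 was higher at that threshold, Rhbdf1, with counts of 0, 0, 15 and 24, and in the EGF family 0 of 3 tested genes were.

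**Figure D5:**
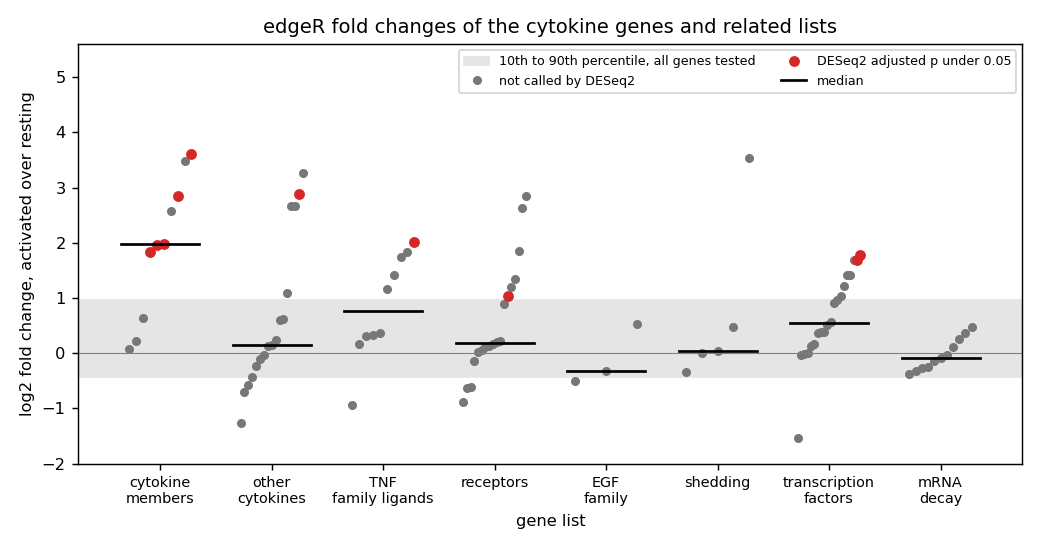
Log2 fold change by edgeR of each tested gene in the cytokine set and in 7 related lists; bars are medians, red points have a DESeq2 adjusted p under 0.05 and the grey band is the 10th to 90th percentile of all genes tested. The cytokine genes have a median of 1.97 (1.84 over the 7 that also pass the filter through the resting libraries), the TNF family ligands 0.76, and the mRNA decay genes -0.09, with 0 red points in the last.

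The genes most like each abundant member in pattern were found by the root mean square distance of centred log2 CPM over the 4 libraries among 8335 genes with a mean of at least 10 CPM. Those nearest to Ebi3 were Angptl2 (distance 0.091) and Baiap3 (0.141), and those nearest to Csf1 were Slc39a4 (0.074) and Baiap3 (0.107). Baiap3 thus lay near both, at 2.82, 7.24, 15.6 and 25.2 CPM from resting A to activated B. Dynlt3 and Tbc1d4 (0.052 and 0.053) were nearest to Tnf, Pan2 and Tma16 to Lta (0.015 each), and Smim11 (0.009) to Ltb.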

How the data were processed

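RNA-seq was deposited for 4 mouse spleen Treg samples, 2 labelled resting and 2 activated. The authors deposited a table of raw read counts per gene and a table of regularized log2 values, per the file headers. STAR 2.4.0c, featureCounts, DESeq2 and the mm10 build are named in the submitters' processing notes, but the sources used here do not give the annotation release, strand setting or filters. Counts were made from amplified cDNA without molecular identifiers mentioned, so intervals from counts cover at most counting error and assume independent counts. The labels give independent animals, and both count columns of a group carry the same replicate number, so columns are named A and B.

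Genes were kept with edgeR's filterByExpr (minimum count 10, minimum total 15), scaled by TMM and tested with the quasi-likelihood test on all 14235 genes (edgeR 4.0.16, limma 3.58.1, R 4.3.3), with Benjamini-Hochberg adjustment over all of them and no replicate block. CPM are counts scaled to a common library total after TMM. Fold changes are fitted with a prior count of 2, which draws those of low counts towards 0. Standard errors are the log2 fold change divided by the root of F and are approximate, and the 95% intervals are unadjusted. Raw counts are given where a library had under 20. DESeq2 1.42.0, limma-voom, other scalings and filters, limma on the log2 table and leaving out each library were alternatives. The same code was tested on simulated data. Identifiers were matched to symbols and positions in GENCODE M21, which found 37607 of 38924.

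Named genes were the 10 cytokine genes, their protein-coding neighbours, up to 4 genes of smallest p and 2 of highest level in each related list, the 2 nearest in pattern to each member with a mean of at least 10 CPM, sort genes and markers, with exceptions said in place. The members and lists were chosen with earlier results of these data known. A few named genes are not reported here.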

Additional observations from a re-analysis of the deposited data

How the results depend on the processing

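The 10 cytokine genes kept the sign of their log2 fold change under every alternative run, except Lta (-0.116 without activated A by edgeR, -0.12 by DESeq2) and Ltb (-0.017 and -0.024 without activated B), both uncalled, and without the other libraries they reached 0.25 and 0.438. Over all genes edgeR called 0 higher and 0 lower (897 and 371 at an unadjusted p under 0.05), as did limma-voom, library totals and limma on the deposited log2 values. DESeq2 called 324 and 118 (5 of the 10), and edgeR with no filter 675 and 177 (7 of the 10 cytokine genes, with the median of all genes shifted to 0.12). Leaving out each library gave 0 to 334 genes higher and 0 to 36 lower by edgeR, and 136 to 317 higher and 30 to 130 lower by DESeq2 (248 and 30 without resting A, 173 and 56 without activated B). Of the 10 genes, these called 0 to 2 by edgeR (Il10 without resting A, Ebi3 and Csf1 without resting B) and 0 to 3 by DESeq2 (Il10, Ebi3 and Csf1, without resting B or activated A). An unadjusted p under 0.05 was reached by 3 to 7 of them by edgeR and 3 to 6 by DESeq2. Their median log2 fold change, 1.97 with all libraries, ran from 1.41 (without activated B) to 2.74 (without resting B) by edgeR and from 1.44 to 2.83 by DESeq2, and was 1.21 on the regularized log2 values, which shrink low genes. Leaving out libraries moved the median from 0.081 to 0.794 (edgeR) and 0.074 to 0.815 (DESeq2) for other cytokines, from -0.524 to 0.520 and -0.550 to 0.554 for the EGF family and from -0.143 to 0.204 and -0.147 to 0.197 for shedding genes. A lone library in a group was assumed to vary like the other group, and the DESeq2 fits without a library were added after its calls were seen. With the replicate number of the log2 table as a block, limma called 1027 genes higher and 525 lower, 7 of the 10 members among them, with a median of 1.21; same-numbered samples deviated together (correlation 0.652), but the labels give independent animals, so the numbers are not taken as pairs. The cause of these differences was not tested. Counts of 0 to 10 in the resting libraries limit what can be said of Il21 and Areg, and 8 and 29 of Il10.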
